A study of Homo sapiens with 6 samples.

Results

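MAF and 6 genes known as its targets in multiple myeloma were followed in the human myeloma cell line JJN3 after exposure to WNK463, a compound that blocks the WNK family of kinases. The genes were chosen by name, with earlier results of these data known. All 7 (MAF, CCND2, ITGB7, CX3CR1, NUAK1, SMARCA1 and SEPTIN10) were found among the 60728 genes of the deposited count table. RNA-seq libraries, 2 per group, came from cells in DMSO alone (the vehicle), from cells exposed to WNK463 for 2 h and from cells exposed for 6 h. The cells of every group were labelled wild type. The labels give the DMSO cells no time of collection, so treatment and time in culture cannot be told apart. The sources differ on the WNK463 dose: the sample protocol has 5 µM, whereas the design text of the series has 1 µM.

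MAF is a basic leucine zipper transcription factor of the large MAF family. In a subset of myelomas, JJN3 among them, a translocation places MAF beside the immunoglobulin heavy chain locus, whose enhancers then drive it at high level. MAF binds a palindromic DNA element, the MAF recognition element or MARE, and the target best known in myeloma is the D-type cyclin gene CCND2, while ITGB7 supplies the integrin subunit through which such cells adhere to bone marrow stroma. JJN3 stands for a single tumour, so the values describe that line alone.

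To show the DNA at the start of the translocated gene, promoter windows are printed for MAF and for 2 of the targets that rose. Windows of 300 bases, 250 before and 50 after the annotated start, came from RefSeq (GRCh38.p14), which held 6 of the 7 genes. CCND2 was not in that table. Capitals mark matches, on either strand, to the motifs searched. The MAF window lies at chr16:79600688-79600987, the ITGB7 window at chr12:53207202-53207501 and the NUAK1 window at chr12:106138905-106139204, all 3 on the minus strand. The NUAK1 window lies wholly inside the gene as counted (chr12:106063340-106140033), so it does not cover the start of that span.
MAF: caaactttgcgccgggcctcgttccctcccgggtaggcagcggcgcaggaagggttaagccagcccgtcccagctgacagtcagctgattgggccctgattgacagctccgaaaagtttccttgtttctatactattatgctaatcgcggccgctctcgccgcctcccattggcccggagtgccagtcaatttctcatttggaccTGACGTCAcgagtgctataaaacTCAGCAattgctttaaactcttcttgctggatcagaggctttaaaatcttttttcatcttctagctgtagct
ITGB7: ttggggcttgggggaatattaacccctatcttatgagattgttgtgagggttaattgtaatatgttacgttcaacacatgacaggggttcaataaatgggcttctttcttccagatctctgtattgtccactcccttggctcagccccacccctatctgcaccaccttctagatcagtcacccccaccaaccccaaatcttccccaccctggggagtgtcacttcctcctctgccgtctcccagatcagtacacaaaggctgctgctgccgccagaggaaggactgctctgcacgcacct
NUAK1: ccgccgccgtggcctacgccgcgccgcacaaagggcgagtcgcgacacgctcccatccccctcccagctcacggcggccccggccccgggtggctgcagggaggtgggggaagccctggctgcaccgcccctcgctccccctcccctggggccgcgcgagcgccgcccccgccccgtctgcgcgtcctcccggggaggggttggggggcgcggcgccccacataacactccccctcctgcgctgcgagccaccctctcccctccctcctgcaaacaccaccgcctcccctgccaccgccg
The motifs were the complete palindromes known as the T-MARE and the C-MARE, the outer part TGCTGA that begins both of them, and their centres TGACTCA (TRE core, inside the T-MARE) and TGACGTCA (CRE core, inside the C-MARE). The MAF window held the CRE core starting 45 bases before the start, and TGCTGA on the opposite strand, printed as TCAGCA, starting 22 bases before it. Of 35116 promoter windows of the same length, 1.85% held the CRE core, 4.95% the TRE core and 17.3% TGCTGA, and 0 held a complete T-MARE or C-MARE. The windows of ITGB7, NUAK1, SMARCA1 and SEPTIN10 held no match, and 1 of the 3 windows of CX3CR1 held TGCTGA. The printed windows differed in base composition, with 51.7% G and C for MAF, 51.7% for ITGB7 and 78.3% for NUAK1, against a median of 58.7% over all windows. A match describes letters only, and says nothing of binding in these cells.

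Counts assigned to genes ran between 18013790 and 24002291 per library, so 3 counts were worth 0.128 to 0.166 CPM (counts scaled to library size). The labels do not state whether the 2 libraries of a group were grown as separate cultures. Each p-value thus speaks of the spread between these libraries, taken mainly from all genes together. Genes were tested with edgeR's quasi-likelihood test and called where the p, adjusted by Benjamini-Hochberg over 15548 genes, was under 0.05. Summed plasma cell markers stood at 1714 to 1827 CPM per library, and T and NK cell markers at 0.155 to 0.854 CPM with CD3D and CD3G at 0. Of the 8 plasma cell markers, 3 were called higher and 1 lower than in DMSO at 2 h, and 3 higher and 2 lower at 6 h. Over all genes tested, 17.0% were called in either direction at 2 h and 36.6% at 6 h. B cell markers, with CD22 at 0, summed to 3.60 to 4.39 CPM in DMSO, 3.24 to 4.37 CPM at 2 h and 1.39 to 2.44 CPM at 6 h, and PAX5 among them was called lower than in DMSO at 6 h (log2 change -1.15, edgeR adjusted p = 0.00894). The part of these shifts in the results was not tested. Every log2 change below is an edgeR estimate with its standard error, and both WNK463 groups were compared with the same DMSO libraries.

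WNK463 was followed at 2 h by higher mRNA of MAF itself and of 3 of its targets, CCND2, NUAK1 and ITGB7. At 6 h those 3 targets still stood above DMSO, while MAF did not pass the test. Of the 6 genes that could be tested at 2 h, 4 were called higher than in DMSO and 0 lower. Of all genes tested, 17.0% were called in either direction, 8.68% higher and 8.32% lower. The calls of MAF and ITGB7 at 2 h were lost at an adjusted p under 0.01. Both were also lost without either 2 h library, though their log2 changes stayed at 0.19 and 0.21. At 6 h, 3 of 6 were called higher and 0 lower, where 36.6% of all genes were called, 18.0% higher and 18.6% lower. Between 6 h and 2 h, 1 of 6 was called higher and 2 lower. Of all genes, 24.3% were called there, 11.1% higher and 13.1% lower. These shares include many weakly expressed genes, whereas all of the 6 but SMARCA1 averaged above 4 CPM. When genes averaging under 4 CPM were dropped, 10620 remained. Of these, 24.6% were called at 2 h, 50.1% at 6 h and 36.7% between the times. With that filter, 4, 4 and 3 of the genes followed were called. The median log2 change of the 6 genes was 0.20 at 2 h and 0.33 at 6 h, each relative to DMSO, and -0.23 for 6 h relative to 2 h. Over all genes tested these medians were -0.00, -0.00 and 0.01. The seventh gene, CX3CR1, did not pass the filter on low counts.

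**Figure D1:**
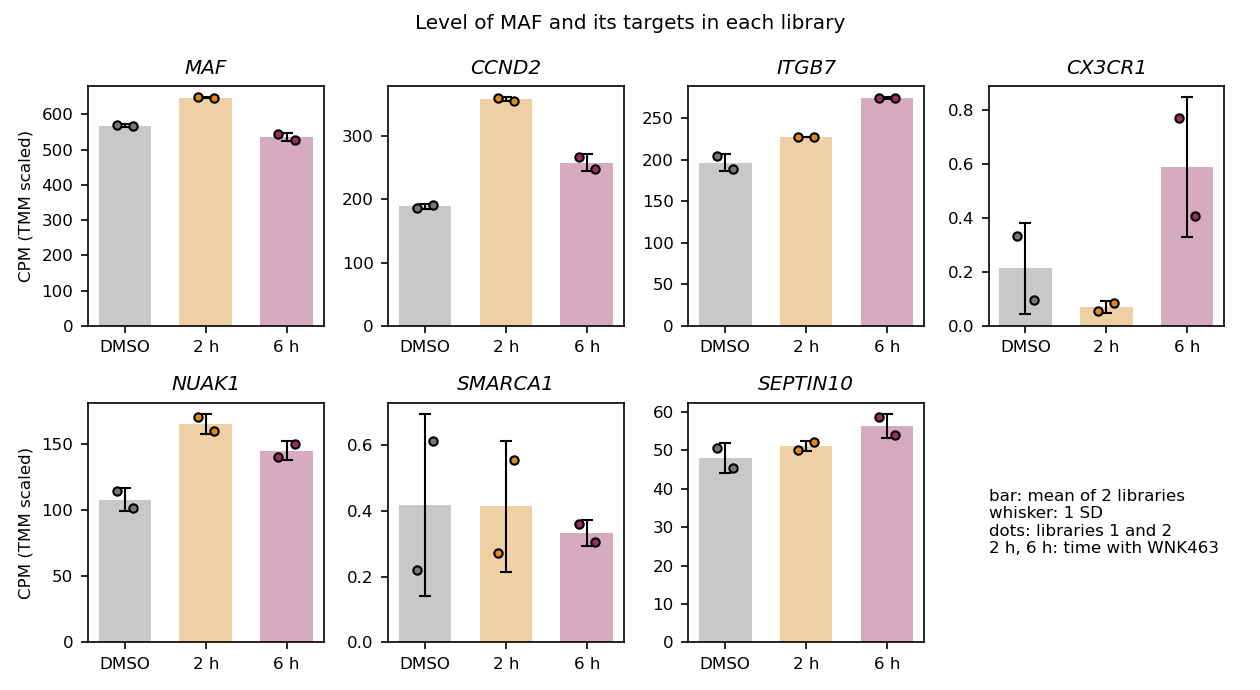
Levels of the 7 genes (CPM, linear axes starting at 0) in DMSO, 2 h and 6 h of WNK463, with a point per library, bars at the group mean and error bars of 1 SD (n = 2). CCND2 averages 189 CPM in DMSO, 358 CPM at 2 h and 258 CPM at 6 h, and ITGB7 averages 197, 228 and 275 CPM in the same order.

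MAF (ENSG00000178573.7) occupies chr16:79585843-79600737 on the minus strand of hg38, with 6999 exonic bases. It had 571 and 566 CPM in the DMSO libraries, 648 and 647 CPM at 2 h, and 544 and 528 CPM at 6 h. Both 2 h libraries lay above and both 6 h libraries below the DMSO pair, so the groups did not overlap. With 2 libraries per group such a separation also occurred without a call, as for MAF at 6 h. Here and below it is no separate support. The means were 568 ± 3.42 CPM in DMSO, 647 ± 0.704 CPM at 2 h and 536 ± 11.5 CPM at 6 h (SD, n = 2). At 2 h MAF was 1.14-fold higher than in DMSO, a log2 change of 0.19 ± 0.0539 (edgeR adjusted p = 0.0105). That call was lost without either 2 h library, at an edgeR adjusted p of 0.110 without replicate 1 and 0.120 without replicate 2, with a log2 change of 0.19 in both cases. At 6 h the log2 change relative to DMSO was -0.08 ± 0.0540 and was not called (edgeR adjusted p = 0.237). The level at 6 h was lower than at 2 h by a log2 change of -0.27 ± 0.0540 (edgeR adjusted p = 0.000116). Per length, MAF stood at 81.2 FPKM (CPM divided by exonic length in kilobases) in DMSO, 92.5 at 2 h and 76.6 at 6 h, and in DMSO it ranked 406 of the 30003 genes with any count.

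The large MAF family has other members with the same DNA-binding design, and in JJN3 a second one was abundant. MAFA, best known from pancreatic beta cells, had 105 and 104 CPM in DMSO, 139 and 159.5 CPM at 2 h, and 125 and 124 CPM at 6 h. MAFA rose at 2 h by a log2 change of 0.51 ± 0.0764 (edgeR adjusted p = 1.53e-06). At 6 h it was higher than in DMSO by 0.25 ± 0.0769 on the log2 scale (edgeR adjusted p = 0.00838), a call lost without 6 h replicate 1 (adjusted p = 0.0803) or 6 h replicate 2 (0.0603). Per length, MAF made up 68.5% of the summed family in both DMSO libraries, 62.0 to 65.3% at 2 h and 63.2 to 63.5% at 6 h. MAFA held nearly all of the rest, and NRL made up at most 0.480%. Among the other genes that myeloma translocations join to the heavy chain locus, CCND1 had at most 8 counts and FGFR3 at most 6 in any library. NSD2 stood at 247 and 225 CPM in DMSO, 222 and 221 CPM at 2 h, and 215 and 220.1 CPM at 6 h, and was not called in any comparison.

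No gene tested around MAF was called higher, where 8.68% of all genes tested were at 2 h and 18.0% at 6 h. With 10 genes tested, that result cannot be set apart from those shares. Several of the 10, such as DYNLRB2 and LINC01227, averaged under 1 CPM in every group. Of 30 genes starting within 1 Mb of the MAF start, 16 had counts and 10 could be tested, and 2 of these were called at 2 h and at 6 h, both lower than in DMSO. That share is near the 17.0% of all genes called at 2 h and below the 36.6% called at 6 h. The 2 genes are the closest genes beyond the MAF start and run on the opposite strand, and GENCODE 29 lists both as long intergenic noncoding RNAs without a gene name. ENSG00000277214 (chr16:79603572-79604177) starts 2835 bases beyond MAF. It had 19 and 25 counts at 2 h, against 88 and 113 counts in DMSO, and fell by 2.27 ± 0.384 on the log2 scale (edgeR adjusted p = 1.61e-05). At 6 h it had 34 and 41 counts, lower than DMSO by a log2 change of -1.41 ± 0.361 (edgeR adjusted p = 0.00159). ENSG00000278058 (chr16:79605802-79606605) starts 5065 bases beyond MAF. It had 73 and 76 counts at 2 h, against 198 and 220 counts in DMSO, a log2 change of -1.57 ± 0.237 (edgeR adjusted p = 2.03e-06). At 6 h it had 115 and 87 counts, and its log2 change relative to DMSO was -1.04 ± 0.229 (edgeR adjusted p = 0.000260). In both genes every WNK463 library lay below every DMSO library, and neither was called between 6 h and 2 h (edgeR adjusted p = 0.120 and 0.121). Reads were counted without regard to strand, so transcription from either strand would enter these counts.

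**Figure D2:**
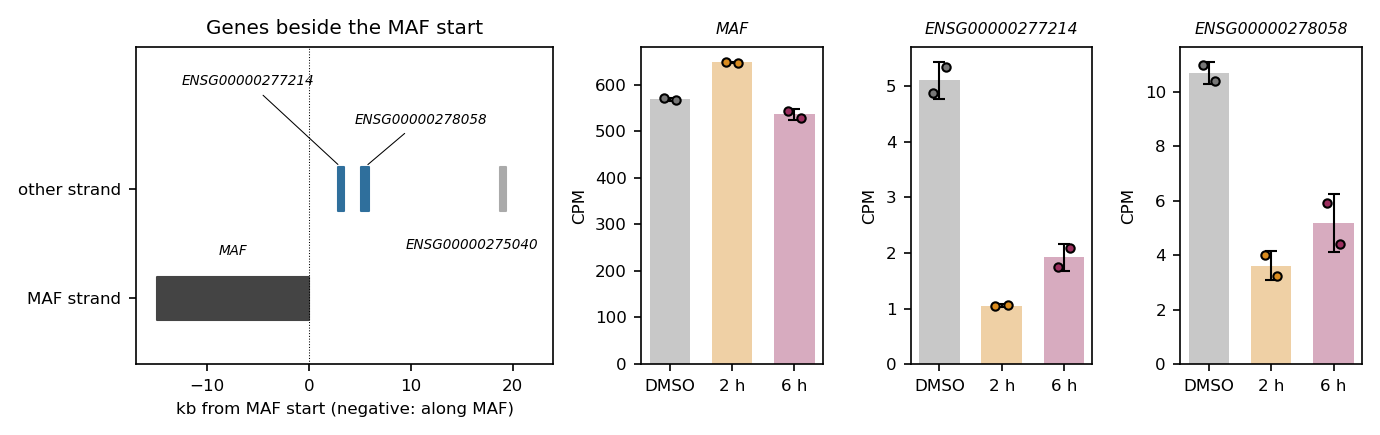
Left, positions of MAF and the 3 nearest genes on its upstream side as distance in kb from the MAF start, by strand. Right, CPM per library (points), group mean (bars) and SD (error bars, n = 2) on axes starting at 0: MAF is highest at 2 h, while both neighbours drawn in blue are highest in DMSO, at 5.11 and 10.7 CPM on average.

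CCND2, the D-type cyclin that pairs with CDK4 and CDK6 at the start of the cell cycle, showed the largest change at 2 h of the 6 genes that could be tested. The gene lies at chr12:4273762-4305353 on the plus strand. It had 186 and 192 CPM in DMSO, 360.3 and 356 CPM at 2 h, and 268 and 249 CPM at 6 h. The 3 groups did not overlap, and the 6 h libraries stood between the others. At 2 h CCND2 was 1.90-fold higher than in DMSO, a log2 change of 0.92 ± 0.0630 (edgeR adjusted p = 5.57e-16), which placed it at rank 19 of the 15548 genes by p. The 6 h level was 1.37-fold that in DMSO, a log2 change of 0.45 ± 0.0631 (edgeR adjusted p = 1.16e-07). The level at 6 h was below that at 2 h by a log2 change of -0.47 ± 0.0623 (edgeR adjusted p = 7.44e-08). An unnamed gene on the same strand covers 13.9% of its exonic length and had 0 counts. Fragments that overlapped both genes were counted for neither, so CCND2 could have lost some and its level per length could be too low.

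CCND2 carried most of the D-cyclin mRNA in every library. Per length, its share of CCND1, CCND2 and CCND3 was 78.5 to 81.2% in DMSO, 84.3 to 85.4% at 2 h and 78.8 to 78.9% at 6 h. The summed D cyclins stood at 32.9 to 33.0 FPKM in DMSO, 58.2 to 59.6 FPKM at 2 h and 43.9 to 47.4 FPKM at 6 h. CCND3 had 40.9 and 35.6 CPM in DMSO, 54.1 and 49.1 CPM at 2 h, and 57.4 and 53.2 CPM at 6 h. It was higher than in DMSO at 6 h by 0.53 ± 0.104 on the log2 scale (edgeR adjusted p = 4.88e-05) and at 2 h by 0.43 ± 0.104 (adjusted p = 0.00220, or 0.0612 without 2 h replicate 1). Of 8 tested genes of the D-cyclin list, CCND2 included, 3 were called higher and 0 lower at 2 h, and 6 higher and 1 lower at 6 h, where 17.0% and 36.6% of all genes were called in either direction. The call of CDK6 at 2 h was lost without 2 h replicate 2 (edgeR adjusted p = 0.0948). At 6 h CDK6, the catalytic partner, had 985 and 924 CPM, against 611 and 674 CPM in DMSO, a log2 change of 0.57 ± 0.0556 (edgeR adjusted p = 1.34e-11). CDKN2C, an inhibitor of the same kinases, also rose at 6 h, to 228 and 231 CPM against 161 and 129.7 CPM in DMSO (log2 change 0.66 ± 0.0751, edgeR adjusted p = 6.62e-10). CDK4 was the gene called lower at 6 h, with 57.9 and 55.9 CPM against 92.2 and 80.5 CPM in DMSO (log2 change -0.60 ± 0.0893, edgeR adjusted p = 3.95e-07), and it shares 44.2% of its exonic length with TSPAN31.

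**Figure D3:**
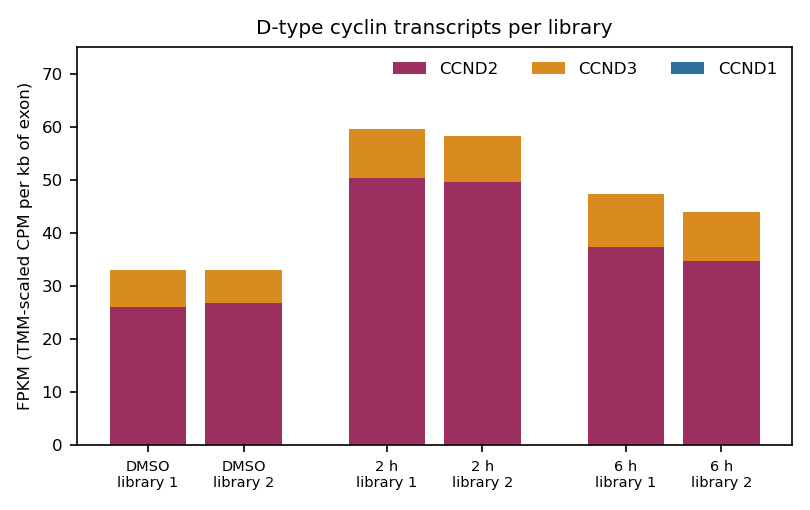
FPKM (linear axis starting at 0) of the D-type cyclin genes in each of the 6 libraries, stacked as CCND2 (bottom), CCND3 and CCND1 (top), with 1 bar per library and so no error bars. The stacks stand at 32.9 to 33.0 FPKM in DMSO, 58.2 to 59.6 FPKM at 2 h and 43.9 to 47.4 FPKM at 6 h, CCND2 fills most of each, and CCND1 is too low to be seen.

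ITGB7 encodes an integrin beta subunit that pairs with ITGA4 to bind MADCAM1 and with ITGAE to bind E-cadherin. The gene lies at chr12:53191323-53207282 on the minus strand. It had 204 and 189 CPM in DMSO, 228 CPM in both libraries at 2 h, and 274 and 275 CPM at 6 h. The groups did not overlap, and here the 6 h libraries were highest. ITGB7 was 1.16-fold higher than in DMSO at 2 h, a log2 change of 0.21 ± 0.0645 (edgeR adjusted p = 0.0180). Without 2 h replicate 1 or 2 that call was lost, at adjusted p = 0.129 and 0.152. By 6 h ITGB7 was 1.40-fold higher than in DMSO, a log2 change of 0.48 ± 0.0644 (edgeR adjusted p = 4.20e-08). ITGB7 was also higher at 6 h than at 2 h, by a log2 change of 0.27 ± 0.0641 (edgeR adjusted p = 0.00107).

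ZNF740, a zinc-finger gene on the other strand, covers 42.3% of the exonic length of ITGB7. Fragments that overlapped both genes were not counted for either, and counting ignored strand, so fragments wholly inside the shared exons could be lost from both. ZNF740 had 47.4 and 38.6 CPM in DMSO, 35.0 and 34.4 CPM at 2 h, and 40.1 and 41.0 CPM at 6 h. It was not called at 2 h (log2 change -0.30, edgeR adjusted p = 0.0517) or at 6 h (log2 change -0.08, edgeR adjusted p = 0.615). Without DMSO replicate 2 the fall of ZNF740 at 2 h was called, at a log2 change of -0.44 (edgeR adjusted p = 0.00475). The integrin list holds partners and ligands of ITGB7 as well as ITGB1, TLN1 and FERMT3, but not ITGB7 itself. Of its 7 tested genes, 2 were called higher at 2 h, and 4 higher and 1 lower at 6 h. Of all genes, 17.0% and 36.6% were called at these times. The calls at 2 h, ITGB1 and CDH1, were both lost without 2 h replicate 1 (edgeR adjusted p = 0.171 and 0.307). ITGB1 at 2 h was also lost without 2 h replicate 2 (0.0534), and CDH1 at 2 h was lost in 12 of 15 alternative settings. At 6 h ITGA4, the gene called lower, lost its call in 9 of 15 settings and FN1 in 4 of 15. ITGB1, the other beta subunit that pairs with ITGA4, had 272 and 257 CPM at 6 h, against 198 and 216 CPM in DMSO (log2 change 0.36 ± 0.0653, edgeR adjusted p = 1.88e-05). CDH1, which encodes E-cadherin, had 9.89 and 10.8 CPM at 6 h, against 4.76 and 5.10 CPM in DMSO (log2 change 1.07 ± 0.216, edgeR adjusted p = 8.31e-05). Per length, ITGB7 made up 54.2 to 58.2% of ITGB7 and ITGB1 together in DMSO, 55.4 to 56.5% at 2 h and 57.6 to 59.1% at 6 h. These shares divide by full exonic length, so fragments lost in the exons shared with ZNF740 could make them too low. The DMSO range overlapped that of each WNK463 time, and those of 2 h and 6 h did not overlap.

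NUAK1, a kinase of the AMPK family that is activated by the tumour suppressor STK11, lies at chr12:106063340-106140033 on the minus strand. It had 115 and 102 CPM in DMSO, 171 and 160.1 CPM at 2 h, and 140.1 and 150.4 CPM at 6 h. All 4 WNK463 libraries lay above both DMSO libraries, and the 2 h libraries lay above those at 6 h. NUAK1 was 1.53-fold higher than in DMSO at 2 h, a log2 change of 0.61 ± 0.0752 (edgeR adjusted p = 2.12e-08). At 6 h NUAK1 was 1.34-fold higher than in DMSO, a log2 change of 0.43 ± 0.0755 (edgeR adjusted p = 1.05e-05). The difference between 6 h and 2 h, a log2 change of -0.19 ± 0.0743, was not called (edgeR adjusted p = 0.0596), but it was called without DMSO replicate 1 (0.00552) or replicate 2 (0.00395). Without 2 h replicate 1 or 6 h replicate 1 it was -0.14 in both cases and not called (edgeR adjusted p = 0.400 and 0.444). NUAK1 made up at least 99.3% of NUAK1 and NUAK2 together per length. Of 6 tested genes of the NUAK list, NUAK1 included, 2 were called higher at 2 h and 3 at 6 h, and 0 lower, where 8.68% and 18.0% of all genes were called higher. Beside NUAK1, the call at 2 h was that of CAB39, lost in 9 of 15 settings and without either 2 h library (edgeR adjusted p = 0.200 and 0.176). PPP1CB at 6 h lost its call without 6 h replicate 1 (0.0642). CAB39, a scaffold of the STK11 complex, was among those at 6 h, with 130.4 and 130.3 CPM against 101 and 106 CPM in DMSO (log2 change 0.33 ± 0.0752, edgeR adjusted p = 0.000360).

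SEPTIN10 encodes a septin, a GTP-binding protein that builds filaments, and lies at chr2:109542799-109614143 on the minus strand. It had 50.7 and 45.3 CPM in DMSO, 50.2 and 52.1 CPM at 2 h, and 58.6 and 54.1 CPM at 6 h. The 2 h libraries overlapped those of DMSO, while both 6 h libraries lay above all the others. No comparison called it: the log2 change was 0.09 ± 0.0997 at 2 h (edgeR adjusted p = 0.592), 0.23 ± 0.0995 at 6 h (0.0637) and 0.14 ± 0.0989 for 6 h relative to 2 h (0.345). Without DMSO replicate 1 the rise at 6 h was called, at a log2 change of 0.31 (edgeR adjusted p = 0.0204), whereas it was 0.15 without DMSO replicate 2 (0.322) and 0.17 without 6 h replicate 1 (0.384). Of 9 tested septin genes, SEPTIN10 included, 1 was called higher at 2 h and 2 lower at 6 h, where 17.0% and 36.6% of all genes were called in either direction. The call at 2 h was that of SEPTIN11, lost without 2 h replicate 2 (edgeR adjusted p = 0.0504). SEPTIN3 had 12.3 and 15.2 CPM at 6 h, against 33.5 and 31.2 CPM in DMSO (log2 change -1.23 ± 0.134, edgeR adjusted p = 2.65e-10). SEPTIN9 had 292 and 308 CPM at 6 h, against 423 and 390.0 CPM in DMSO (log2 change -0.44 ± 0.0602, edgeR adjusted p = 8.04e-08). Per length, SEPTIN10 made up 5.72 to 6.66% of the septin sum in DMSO, 6.12 to 6.29% at 2 h and 7.44 to 8.18% at 6 h.

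SMARCA1 and CX3CR1, though known as MAF targets in myeloma, were barely present in JJN3. SMARCA1, an ISWI chromatin-remodelling ATPase at chrX:129446501-129523500, had 4 and 13 counts in DMSO, 5 and 13 at 2 h, and 7 and 6 at 6 h. Its counts overlapped in all groups, no comparison called it (edgeR adjusted p = 0.996 at 2 h, 0.822 at 6 h and 0.855 for 6 h relative to 2 h), and a difference was not detectable at this depth. SMARCA5, the other ISWI ATPase, made up 99.5 to 99.8% of the pair per length. Of 10 tested ISWI genes, SMARCA1 included, 1 was called higher at 2 h, and 1 higher and 3 lower at 6 h, near the 36.6% of all genes called at 6 h and below the 17.0% called at 2 h. RBBP4, 1 of the 3 lower genes, lost its call in 9 of 15 settings. RSF1, a partner of SMARCA5, was the gene called higher at both times, with 178 and 173.5 CPM at 2 h and 175 and 168 CPM at 6 h, against 129 and 139.7 CPM in DMSO (edgeR adjusted p = 5.44e-05 and 7.80e-05). BAZ1A, another partner, had 146 and 134 CPM at 6 h, against 178 and 199 CPM in DMSO (log2 change -0.43 ± 0.0717, edgeR adjusted p = 4.44e-06).

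CX3CR1, the receptor for the chemokine CX3CL1, lies at chr3:39263495-39281735. It had 6 and 2 counts in DMSO, 1 and 2 at 2 h, and 15 and 8 at 6 h. Pooled over each group these were 0.204 CPM in DMSO (95% Poisson interval 0.0881 to 0.402), 0.0719 CPM at 2 h (0.0148 to 0.210) and 0.589 CPM at 6 h (0.373 to 0.883), intervals that cover counting error only. The ratio of 6 h to DMSO was 2.89 with a counting interval of 1.25 to 7.46, and that of 6 h to 2 h was 8.19 with an interval of 2.47 to 42.6. In the edgeR test without a filter, over 30003 genes, neither difference was called (adjusted p = 0.626 and 0.216), nor was 2 h relative to DMSO (0.786). Myeloid cells also express CX3CR1, and the 7 myeloid markers summed to 8.71 to 8.95 CPM at 6 h, 6.83 to 8.31 CPM at 2 h and 4.77 to 8.64 CPM in DMSO. Of these 7 markers 4 were tested and 0 called in any comparison, and their part in the CX3CR1 counts was not tested. The ligand CX3CL1 had 0 counts in all libraries. The other genes of the CX3CR1 list, the sheddases ADAM10 and ADAM17 and the signalling subunits GNAI2 and GNAI3, were all called higher at 6 h, with log2 changes of 0.27 to 0.34, where 18.0% of all genes were called higher. The call of ADAM17 was lost without 6 h replicate 1 (edgeR adjusted p = 0.0746).

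**Figure D4:**
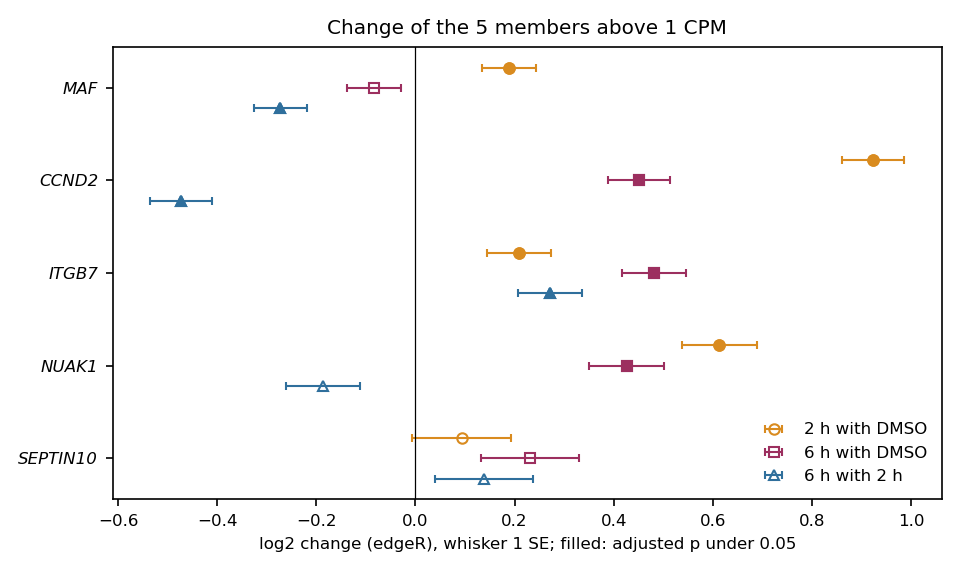
Log2 changes (edgeR estimates) of the 5 genes above 1 CPM at 2 h relative to DMSO, at 6 h relative to DMSO and at 6 h relative to 2 h, with 1 standard error as whiskers and filled symbols where the adjusted p was under 0.05. At 2 h CCND2 is farthest from 0 at 0.92, and for 6 h relative to 2 h MAF and CCND2 lie below 0 and ITGB7 above it.

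By their mean levels, MAF, CCND2 and NUAK1 were highest at 2 h, while ITGB7 and SEPTIN10 were highest at 6 h, though the times did not differ by the test for NUAK1 and SEPTIN10. Over the 6 libraries the centred log2 profiles of CCND2 and NUAK1 correlated at 0.93 and those of ITGB7 and SEPTIN10 at 0.90, while MAF correlated with CCND2 at 0.69 and with ITGB7 at -0.36. These are descriptions over 6 libraries that share their scaling. Among the genes nearest to MAF of 10620, by the root mean square difference of centred log2 CPM, were YTHDF1 and RPSA, at 0.0246 and 0.0275. Those nearest to CCND2 were JMY, DUSP4 and RUNX1, at 0.0459, 0.0612 and 0.0643. Fewer cells of a kind and less RNA per cell cannot be told apart in bulk libraries such as these.

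Beyond the 6 targets, a further 10 genes tied to MAF in myeloma were examined. Of the 8 that could be tested, 3 were called higher at 2 h and 4 at 6 h, 2 were higher at 6 h than at 2 h, and 0 were called lower in any comparison. Of all genes tested, 8.68% were called higher at 2 h, 18.0% at 6 h and 11.1% for 6 h relative to 2 h. The calls at 2 h of RND3 and APOBEC3B and that of APOBEC3A at 6 h were lost when 1 library was left out. The median log2 change of the 8 genes was 0.28 at 2 h, 0.30 at 6 h and 0.13 for 6 h relative to 2 h, against -0.00, -0.00 and 0.01 over all genes tested. CCR1, a chemokine receptor of the CCL3 pathway in myeloma bone disease, had 106 and 108 CPM in DMSO, 157 and 158 CPM at 2 h, and 278 and 282 CPM at 6 h. The 3 groups did not overlap. CCR1 was 1.47-fold higher than in DMSO at 2 h (log2 change 0.55 ± 0.0686, edgeR adjusted p = 2.60e-08) and 2.61-fold higher at 6 h (log2 change 1.38 ± 0.0686, edgeR adjusted p = 3.03e-21).

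APOBEC3B, a cytidine deaminase of the mutational signature seen in MAF-translocated myeloma, had 73.8 and 69.6 CPM in DMSO, 89.7 and 87.7 CPM at 2 h, and 116 and 118 CPM at 6 h. At 6 h it was 1.63-fold higher than in DMSO (log2 change 0.70 ± 0.0811, edgeR adjusted p = 1.05e-09). At 2 h the log2 change was 0.31 ± 0.0816 (edgeR adjusted p = 0.00555, or 0.0716 without 2 h replicate 1). Its close relative APOBEC3A had 0 and 12 counts in DMSO, 7 and 23 at 2 h, and 18 and 41 at 6 h. APOBEC3A was called higher at 6 h (edgeR adjusted p = 0.0255), but not without DMSO replicate 1 (0.248), without 6 h replicate 2 (0.317) or in DESeq2 (0.0504). APOBEC3A and APOBEC3B are paralogs, alike over part of their sequence, that share some exonic bases in the table, so fragments could be divided wrongly between them. RND3, which encodes a small GTPase, had 21.7 and 22.8 CPM at 6 h, against 15.0 and 16.2 CPM in DMSO (log2 change 0.51 ± 0.140, edgeR adjusted p = 0.00313). Its call at 2 h (log2 change 0.47 ± 0.140, edgeR adjusted p = 0.0134) was lost without DMSO replicate 1 (0.0619) or 2 h replicate 2 (0.175). DEPTOR, TLR4, ARID5A and ETS1 were not called in any comparison, with log2 changes relative to DMSO between -0.18 and 0.26. NTRK2 and SPP1 did not pass the filter, with pooled counts of SPP1 at 3 in DMSO, 0 at 2 h and 22 at 6 h.

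**Figure D5:**
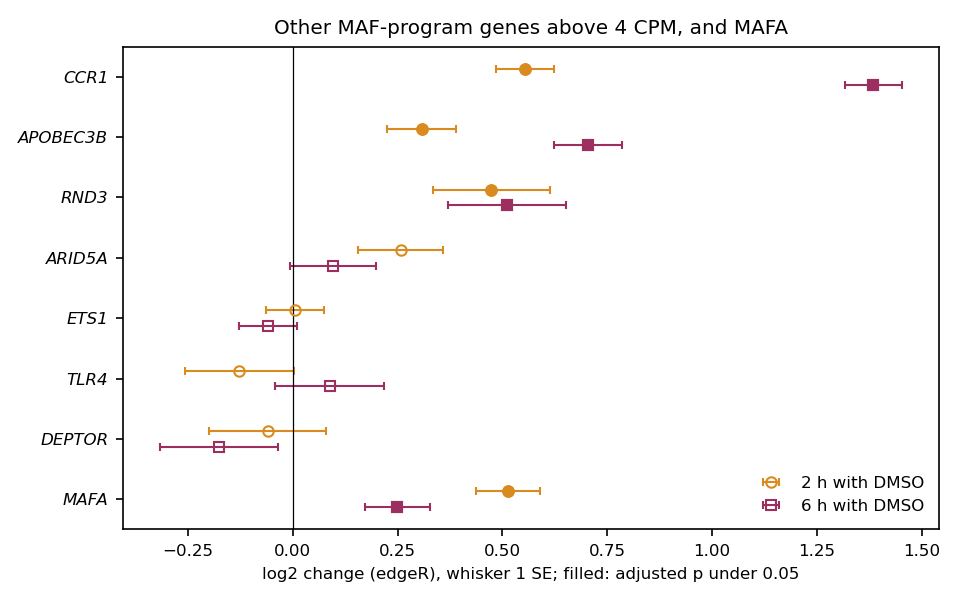
Log2 changes relative to DMSO at 2 h and 6 h for the 7 genes of the further MAF list above 4 CPM, and for MAFA, with 1 standard error as whiskers and filled symbols where the adjusted p was under 0.05. CCR1 and APOBEC3B lie further above 0 at 6 h than at 2 h, MAFA lies further above 0 at 2 h, and the 4 genes with open symbols lie between -0.18 and 0.26.

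MAF protein is phosphorylated by GSK3 kinases and its ubiquitin marks are added by HERC4 and UBE2O and removed by the deubiquitinases USP5, USP7 and OTUB1. Of 9 tested genes of that list, 1 was called higher at 2 h, and 2 higher and 3 lower at 6 h, where 17.0% and 36.6% of all genes were called in either direction. UBE2O, 1 of the 3 lower genes, lost its call without 6 h replicate 2 (log2 change -0.14, edgeR adjusted p = 0.412, against -0.28 with all libraries). GSK3B had 115 and 114 CPM at 6 h, against 66.4 and 84.8 CPM in DMSO (log2 change 0.60 ± 0.0882, edgeR adjusted p = 3.07e-07). Its rise at 2 h (log2 change 0.37 ± 0.0884, edgeR adjusted p = 0.00193) was lost without DMSO replicate 1, at a log2 change of 0.21 (0.0634). USP7 had 352 and 329 CPM at 6 h, against 402 and 439 CPM in DMSO (log2 change -0.31 ± 0.0599, edgeR adjusted p = 5.49e-05). OTUB1 had 62.0 and 62.9 CPM at 6 h, against 85.2 and 77.6 CPM in DMSO (log2 change -0.38 ± 0.0910, edgeR adjusted p = 0.000722). These are mRNA levels, and protein was not measured.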

How the data were processed

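The deposited values are fragment counts per gene. Per the file headers, the authors made these counts with featureCounts 2.0.0 on GENCODE 34, from alignments with a mapping quality of at least 20, without regard to strand and without counting fragments that overlap several genes. Per the submitters' processing notes the genome build was hg38 and Trimmomatic and STAR were used, with versions not given in the sources used here. Symbols were matched for 42052 identifiers, and 1 broken record was rejoined.

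All 6 libraries were fitted together in edgeR 4.0.16 (R 4.3.3), with a mean per group, TMM scaling and filterByExpr, which left 15548 genes. Standard errors were derived from the F statistics. The biological coefficient of variation was 7.72%. With 42.8 prior against 3 residual degrees of freedom, the p of a gene rests mainly on the spread of all genes. CPM here are counts scaled by library size and TMM factor, and FPKM divide them by exonic length. The procedure was tested on simulated data. The replicate libraries of each group differed by more than sampling noise, and those of DMSO differed most. The chi-square per degree of freedom was 8.41 in DMSO, 4.15 at 2 h and 3.57 at 6 h. The fit shared its estimate of spread across the groups, and every change relative to DMSO rests on the DMSO pair.

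The 7 genes and the lists were chosen with earlier results of these data known. Named were all 7, up to 4 called genes per list by adjusted p, genes overlapping a member or starting within 1 Mb of MAF, and the 3 genes most like MAF or CCND2. Some genes that this rule or the lists take in are not reported here. Genes named as not called, or for their counts, were picked after their values were seen. Alternatives were other scalings, filters and thresholds, DESeq2 1.42.0, limma 3.58.1 voom, a replicate block, fits of the compared groups alone, and leaving out each library. For genes other than the 7 these alternatives were added after seeing the data. Plots were made in Python 3.11.15 with matplotlib 3.10.9.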

Additional observations from a re-analysis of the deposited data

Results flagged for a closer look

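Only MAF, its targets, the further MAF list and the large MAF family are covered here. For 6 of these genes the change relative to DMSO at 6 h differed from that at 2 h. The test was edgeR's quasi-likelihood test of 6 h with 2 h, with Benjamini-Hochberg adjustment over all genes. It called 24.3% of all genes tested in either direction. Genes of the other lists were among them, such as CDKN2C (log2 difference 0.70), SEPTIN3 (-1.03) and BAZ1A (-0.56). In all 6 genes covered here, both libraries of each time lay apart from those of the other. That is no separate support, since these genes were picked by the test. The change of MAF was lower at 6 h by a log2 difference of -0.27, that of CCND2 by -0.47 and that of MAFA by -0.26. The change of ITGB7 was higher at 6 h by 0.27, that of CCR1 by 0.83 and that of APOBEC3B by 0.40. The call for MAFA was lost without 2 h replicate 2 (log2 difference -0.16, edgeR adjusted p = 0.344), without 6 h replicate 1 (0.0753) and without 6 h replicate 2 (0.0924), while the calls for the other 5 genes held without any 1 library.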

How the results depend on the processing

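Beside the values as reported, 15 settings were run. Of 263 recomputed changes of the 6 tested genes, 244 kept their direction and their side of the threshold. CCND2 kept its calls in all 15 settings in each comparison, with log2 changes of 0.89 to 0.95 at 2 h relative to DMSO. The number of the 7 genes called at 2 h ran from 2 to 4 when 1 library was left out and was 2 at an adjusted p under 0.01, with MAF and ITGB7 the genes lost. SEPTIN10 at 6 h was called with scaling by library size alone (edgeR adjusted p = 0.0323) and at a mean of at least 4 CPM (0.0330), and in 12 of 15 settings it was not called. SMARCA1, which was never called, changed sign at 2 h relative to DMSO with limma voom (log2 change 0.066), with the replicate block (0.014), without 2 h replicate 1 (0.39) and without DMSO replicate 2 (0.91), over a range of -0.62 to 0.91 when 1 library was left out. It also did so at 6 h relative to DMSO without DMSO replicate 2 (range -0.87 to 0.57) and for 6 h relative to 2 h without 2 h replicate 2 (range -0.73 to 0.28), and ZNF740 did so at 6 h relative to DMSO without DMSO replicate 1 (range -0.22 to 0.071). The causes were not tested. Replicate numbers did not pair the libraries (correlations of same-numbered deviations 0.0834, -0.0897 and -0.0296), and with the replicate block the number of the 7 genes called was 4 at 2 h, 3 at 6 h and 3 for 6 h relative to 2 h, as without it. Depth limited CX3CR1 and SMARCA1 most, with at most 15 counts in a library.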
